A study of Homo sapiens with 8 samples.

Results

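The Notch genes described here are 10 of the 58051 genes counted in A375, a human melanoma cell line: the receptors *NOTCH1*, *NOTCH2* and *NOTCH3*, the Jagged ligands *JAG1* and *JAG2*, and the targets *HES1*, *HES4*, *HEY1*, *HEYL* and *NRARP*. They were chosen by name, as a pathway list. RNA was sequenced from 4 wild-type lines, WT1 to WT4, each grown from a single A375 cell. Every line was kept for 12 h in DMEM with 10% fetal bovine serum (serum) or in DMEM alone (serum-free), which gave 8 libraries, 1 per line and condition. The study asked which components of serum account for differences in behavior between cells with and without *NECTIN1*. Its term wild-type refers to that gene. Each line is a clone with 1 library per condition. Without a block for the line, the p-values below set a change against the spread between 4 clones. With the line as a block, they set it against the spread of the response between lines. The test between lines uses the spread left after line and condition. Of the 10 genes, 8 passed the filter on low counts and were tested among 17671 genes, whereas *HEYL* and *NRARP* did not.

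Notch receptors are cell-surface proteins that are activated by ligands on a neighboring cell. Binding of a Jagged or Delta-like ligand exposes the receptor to cleavage by ADAM proteases and then by γ-secretase, and the released intracellular domain enters the nucleus. There it joins the DNA-binding protein RBPJ and Mastermind coactivators and switches on target genes such as those of the HES and HEY families, which encode transcriptional repressors. In the melanocyte lineage, Notch signaling is known for maintaining melanocyte stem cells.

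The promoters of the targets show where the RBPJ motif lies. The core of that motif, TGGGAA, was searched on both strands in the 250 bases upstream of the transcription start (RefSeq, GRCh38.p14). It was found in 3 of the 9 members in the promoter table, *HES1*, *HES4* and *HEYL*, and in 20.8% of all 35116 promoters. *HEY1* was not among the 9. *HES1* and *HEYL* each held it at 2 places, as did 2.9% of all promoters at 2 or more. The sequences of these genes and of *HEY2*, a HEY family gene outside the member list that is described below, are shown 5′ to 3′ on the gene's strand. Capitals mark TGGGAA or its reverse complement.
HES1 (chr3:194135898-194136147, plus strand): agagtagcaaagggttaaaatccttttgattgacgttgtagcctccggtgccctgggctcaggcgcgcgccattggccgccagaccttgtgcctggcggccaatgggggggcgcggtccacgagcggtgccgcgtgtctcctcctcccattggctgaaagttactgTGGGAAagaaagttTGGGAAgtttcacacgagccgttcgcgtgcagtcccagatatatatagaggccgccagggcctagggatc
HES4 (chr1:1000098-1000347, minus strand): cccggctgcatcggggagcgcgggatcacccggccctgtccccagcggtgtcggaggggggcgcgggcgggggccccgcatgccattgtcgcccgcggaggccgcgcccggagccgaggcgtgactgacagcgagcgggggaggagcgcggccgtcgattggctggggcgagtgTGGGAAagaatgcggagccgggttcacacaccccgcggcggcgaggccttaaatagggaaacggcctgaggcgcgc
HEYL (chr1:39639644-39639893, minus strand): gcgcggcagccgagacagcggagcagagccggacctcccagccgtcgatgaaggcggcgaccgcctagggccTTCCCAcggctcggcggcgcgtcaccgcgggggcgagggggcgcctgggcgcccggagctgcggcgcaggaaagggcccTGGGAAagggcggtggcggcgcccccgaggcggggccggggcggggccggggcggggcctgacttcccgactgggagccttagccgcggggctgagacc
HEY2 (chr6:125749382-125749631, plus strand): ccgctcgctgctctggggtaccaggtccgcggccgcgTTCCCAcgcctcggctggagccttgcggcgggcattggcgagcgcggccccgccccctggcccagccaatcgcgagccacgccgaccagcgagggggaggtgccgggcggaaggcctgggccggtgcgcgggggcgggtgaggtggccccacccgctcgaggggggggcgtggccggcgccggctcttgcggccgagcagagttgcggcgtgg
In *HES1* the matches lay 84 to 79 and 70 to 65 bases before the start, and in *HES4* 76 to 71 bases before it. In *HEYL* one match lay 178 to 173 bases before the start on the reverse strand and the other 99 to 94 bases before it. The longer form GTGGGAA, which contains TGGGAA, occurred once in each of these 4 promoters, all of which hold TGGGAA. Over all promoters, 7321 held TGGGAA, and 1906 of them held GTGGGAA (5.43% of all promoters). Outside the members, *HES3* held TGGGAA without the longer form, and *HES5* held both. The N box CACNAG, a motif bound by HES proteins, occurred at 3 places in *HES1* and at 1 in *NOTCH3*, against at least 1 match in 32% of all promoters. The E box CACGTG was found in none of the 9 members and in 6.34% of all promoters. A match describes the letters only, and no binding was measured.

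Per gene length, 2 receptors were the most abundant of the 10 genes. Levels were compared between genes as RPKM, the count divided by the length of the merged exons and by the scaled library size. With serum, *NOTCH2* (chromosome 1, 119911553 to 120069662 of GRCh38) averaged 21.3 ± 2.84 RPKM and *NOTCH1* (chromosome 9, 136494433 to 136546048) 13.3 ± 1.79 (SD, n = 4). These levels ranked 2205 and 3439 among 17425 tested genes with a known length. *HES1* (chromosome 3, 194136148 to 194138732) followed at 8.30 ± 2.80 RPKM, *JAG1* (chromosome 20, 10637684 to 10673999) at 4.02 ± 1.55 and *NOTCH3* (chromosome 19, 15159038 to 15200995) at 2.64 ± 0.222 RPKM. The first 4 were above the median of these tested genes, 2.75 RPKM, and *NOTCH3* was just below it.
The remaining targets and *JAG2* were rare. *HEY1* (chromosome 8) averaged 1.06 ± 0.257 RPKM, *HES4* (chromosome 1, 998964 to 1000097) 0.366 ± 0.165 and *JAG2* (chromosome 14, 105140995 to 105168776) 0.0486 ± 0.0327 RPKM with serum. *HEYL* (chromosome 1, 39623435 to 39639643) had 1 read in WT2 with serum, 1 in WT3 without serum and none in the other libraries. *NRARP* (chromosome 9, 137299631 to 137302271), which encodes an inhibitor of Notch signaling that is itself a Notch target, had 0 reads in all 8 libraries. CPM is the count scaled to the TMM-adjusted library size. A count of 0 allows up to 3 counts, or between 0.0393 and 0.106 CPM across libraries (counting error only). The order of the 10 mean levels was the same with and without serum. *JAG1* and *NOTCH3*, and *HEYL* and *NRARP*, did not differ from each other beyond their spread between lines in either condition, and the libraries of *NOTCH1* and *HES1* overlapped in both. Those of *NOTCH2* and *NOTCH1* overlapped without serum. The annotation release behind the counts was not given in the sources used here, so genes that overlap *NRARP* in that release could not be checked.

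**Figure D1:**
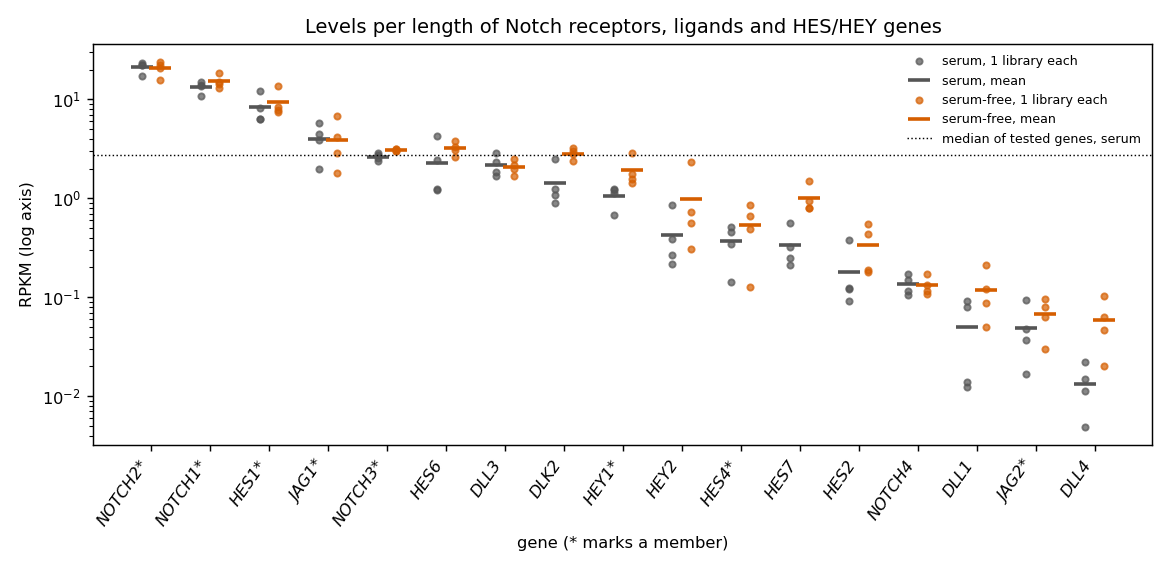
Levels of Notch receptors, ligands and HES/HEY genes with a count in all 8 libraries, in RPKM on a log axis; each point is 1 library (4 lines per condition), short bars are means and the dotted line is the median of tested genes with serum. NOTCH2, NOTCH1, HES1 and JAG1 have mean levels above that line with serum, and JAG2 lies near the bottom at 0.0486 RPKM.

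Libraries held between 29759279 and 73341551 reads counted on genes. WT4 with serum was the shallowest. The tables labelled WT4 were deposited under a different line name, so this line is identified by its label only. Reads aligned to several places made up 22.7% in WT1 and 16.8% in WT2 with serum and 5.73% to 10.1% in the others, and reads left ambiguous between overlapping genes 8.23% to 11.5%. Among 12 melanocytic and neural crest markers, *MITF* was at 30.1 to 44.2 CPM and *AXL* at 309 to 656, while *TYR* did not exceed 0.0524. The paper places high AXL with low MITF along melanocytic differentiation. *NGFR* was at 24.1 to 199 CPM, *S100B* at 13.6 to 34.9 and *S100A1* at 2.92 to 6.29. *PMEL*, *MLANA*, *DCT*, *TYRP1* and *SOX9* did not exceed 2.90. The sum of the list was 402 to 888 CPM, mostly *AXL*. *SOX10* was at 0 in all 8 libraries, but it overlaps *POLR2F*, so reads shared by both genes could not be counted. Summed markers of other cell types spanned 14.2 to 48.6 CPM for 5 endothelial genes (mostly *KDR*), 2.55 to 7.59 CPM for 5 immune genes (mostly *LYZ*), 11.8 to 21.7 for 5 epithelial genes (mostly *KRT14*) and 4.77 to 8.37 for 5 smooth muscle and pericyte genes. *PTPRC*, *CDH1* and *EPCAM* were at or below 0.166 CPM in every library. In the smooth muscle and pericyte list, the sum was 4.77 to 6.27 CPM with serum and 6.52 to 8.37 without serum. Its part in the results was not tested.

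Withdrawal of serum raised *HEY1* and, in the fit without a block, changed no other member past the threshold. *HEY1* encodes a repressor that acts downstream of Notch in several tissues. In WT1 to WT4 it was at 3.76, 6.63, 6.15 and 6.80 CPM with serum, and at 7.87, 9.59, 8.63 and 15.9 CPM without serum. All 4 serum-free libraries were above all 4 serum libraries, with WT4 highest without serum and WT1 lowest with serum. The log2 fold change was 0.85 ± 0.26 (SE, n = 4), or 1.80-fold (adjusted p = 0.0381, edgeR's quasi-likelihood F test, Benjamini-Hochberg adjusted over all tested genes). Within lines, serum-free to serum ratios of *HEY1* were 2.09 in WT1 (95% interval from counting error alone, 1.71 to 2.56) and 2.34 in WT4 (2.00 to 2.75). They were smaller in WT2, at 1.45 (1.28 to 1.63), and in WT3, at 1.40 (1.19 to 1.66).
*HEY1* was thus 1 of 8 tested members called, against 25.1% of all tested genes. These were 1957 genes higher and 2477 lower without serum, while upper-quartile scaling called 2508 higher among 4351. In bulk RNA, fewer expressing cells and less RNA per cell cannot be told apart. The *HEY1* call was lost in 9 of 12 fits without a block that omitted 1 library or 1 line, where adjusted p reached 0.110. It was lost without the serum library of WT1 (adjusted p = 0.0851), WT2 (0.0630) or WT3 (0.0809), and without the serum-free library of WT2 (0.0601), WT3 (0.0525) or WT4 (0.0917). It was also lost without the lines WT1 (0.0748), WT2 (0.0922) or WT3 (0.110).
With the line as a replicate block, which compares each line with itself, *HEY1* passed in all 4 fits that left out a line (edgeR's adjusted p between 9.46e-05 and 0.00160). The block called 2 of 8 members, *HEY1* and *NOTCH3*, against 45.7% of all tested genes. Without WT1, WT2 or WT3 the blocked fit called 1 member, *HEY1*, against 34.2%, 37.1% and 34.3% of genes. Without WT4 it called 5 members, against 50.3% of genes: *NOTCH1* (log2 fold change 0.28, adjusted p = 0.00174), *NOTCH3* (0.25, 0.00311) and *HEY1* (0.67, 9.46e-05) were higher without serum, and *NOTCH2* (−0.10, 0.0432) and *JAG1* (−0.24, 0.00721) lower.

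**Figure D2:**
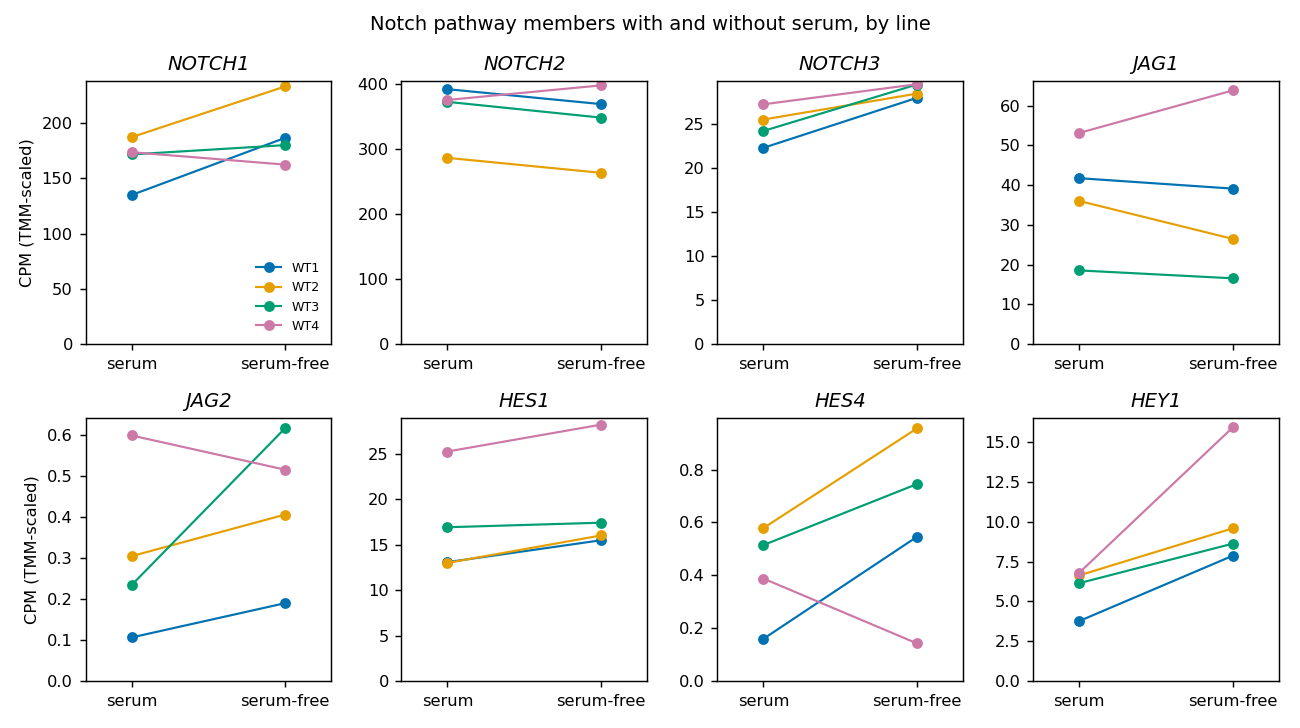
Level of each tested member in CPM (y axes start at 0) with serum and without serum; each line joins the 2 libraries of 1 cell line, WT1 to WT4. HEY1 rises in all 4 lines, from 3.76 to 6.80 CPM with serum to 7.87 to 15.9 CPM without, while JAG1, NOTCH2, NOTCH1, JAG2 and HES4 have WT4 running against the other lines.

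Among the receptors, *NOTCH3* differed least between lines, with a 1.13-fold range of line means. In WT1 to WT4 it was at 22.3, 25.5, 24.2 and 27.3 CPM with serum, and at 28.0, 28.5, 29.5 and 29.5 CPM without serum. Each serum-free library was above each serum library, which held for 2 of 8 members (*HEY1* and *NOTCH3*) and for 12.6% of all tested genes. No member had all serum-free libraries below all serum libraries, against 15.0% of genes. The *NOTCH3* log2 fold change of 0.22 ± 0.08 (SE) did not pass without the block (edgeR's adjusted p = 0.0712) and passed with it (0.0184). Without the block it passed with upper-quartile scaling (0.28, adjusted p = 0.0313), and when the serum library of WT4 (0.0197) or the line WT4 (0.0305) was left out. The blocked call was lost without WT1 (adjusted p = 0.115), WT2 (0.0513) or WT3 (0.118).
Fold changes moved with the GC content of the transcript. *NOTCH3* had 63.1% GC, above 93.8% of tested genes, and log2 fold changes correlated with GC across 17425 genes (Spearman's rho = 0.36, genes not being independent replicates). With the block and a GC correction, the log2 fold change of *NOTCH3* was −0.04 (edgeR's adjusted p = 0.611). *NOTCH1*, *JAG2* and *HES4* also lay above 94.2% or more of tested genes in GC content, while *HEY1*, at 45% GC, was above 38.9%. *HEY1* remained at 0.84 with the correction (edgeR's adjusted p = 5.65e-05), where it was the 1 member called, against 46.4% of all genes in that fit.

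*NOTCH1* was at 135, 187, 172 and 174 CPM in WT1 to WT4 with serum, and at 187, 233, 180 and 163 without. It was higher without serum in 3 lines and lower in WT4, and the groups overlapped. On the log2 scale the change was 0.19 ± 0.13 (SE; edgeR's adjusted p = 0.302), and −0.07 with the block and GC correction (adjusted p = 0.269). Ratios within lines ran from 1.38 in WT1 (95% counting interval, 1.34 to 1.43) to 0.935 in WT4 (0.903 to 0.968). *NOTCH1* overlaps ENSG00000227512 on the other strand, which had 21 to 91 reads, and the strand setting of the counts was not given in the sources used here.
*NOTCH2* was at 392, 286, 373 and 375.5 CPM in WT1 to WT4 with serum, and at 369, 263, 348 and 398 without. WT2 was the lowest line in both conditions, and the groups overlapped. The change was −0.05 ± 0.14 on the log2 scale (SE; edgeR's adjusted p = 0.828), with ratios of 0.920 to 0.942 in WT1 to WT3 and 1.06 in WT4 (95% counting interval, 1.04 to 1.08). *NOTCH2* has near-identical copies, of which *NOTCH2NLA* had 517 to 1503 reads, and reads that fit both genes make its count uncertain.

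The ligand *JAG1* differed more between lines than between conditions. In WT1 to WT4 it was at 41.7, 36.0, 18.6 and 53.1 CPM with serum, and at 39.1, 26.5, 16.6 and 63.8 CPM without. WT3 was the lowest and WT4 the highest in both conditions, so the groups overlapped widely. Serum withdrawal gave a log2 fold change of −0.03 ± 0.46 (SE; edgeR's adjusted p = 0.972). Within lines the ratio was 0.735 in WT2 (95% counting interval, 0.692 to 0.780), 0.937 in WT1 (0.874 to 1.0), 0.893 in WT3 (0.804 to 0.992) and 1.2 in WT4 (1.13 to 1.28). Only 1 library per line and condition was measured, so a difference in response between lines was not tested. Lines moved in both directions for 5 of 8 tested members and for 44.6% of all tested genes.
*JAG2*, a second Jagged ligand, had 4, 20, 10 and 17 reads in WT1 to WT4 with serum and 8, 31, 24 and 29 without. At these counts its log2 fold change of 0.51 ± 0.52 (SE; edgeR's adjusted p = 0.512) leaves a wide range, and the interval of the ratio within a line included 1 in 3 of 4 lines.

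**Figure D3:**
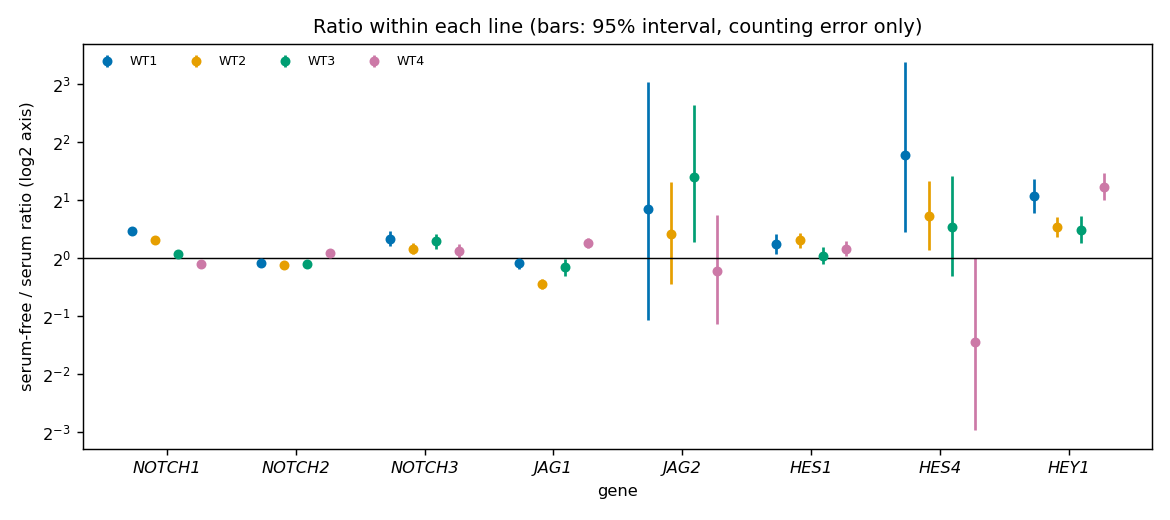
Ratio of serum-free to serum level within each line for the 8 tested members, on a log2 axis; points are lines and bars are 95% intervals from counting error only. All 4 HEY1 ratios lie above 1, and the WT4 ratio falls on the other side of 1 from the remaining lines for NOTCH1, NOTCH2, JAG1, JAG2 and HES4.

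Among the other targets, *HES1*, a repressor that is a classic Notch target, was at 13.1, 13, 16.9 and 25.3 CPM in WT1 to WT4 with serum. Without serum it was at 15.5, 16, 17.4 and 28.3 CPM. Each line was higher without serum, but the groups overlapped, and WT4 was the highest in both. Its log2 fold change was 0.18 ± 0.27 (SE; edgeR's adjusted p = 0.662), with ratios between 1.03 in WT3 (95% counting interval, 0.926 to 1.14) and 1.23 in WT2 (1.13 to 1.35).
*HES4*, a HES family gene with the RBPJ motif at a similar distance from its start as *HES1*, had 6, 38, 22 and 11 reads in WT1 to WT4 with serum and 23, 73, 29 and 8 without. It was higher without serum in 3 lines and lower in WT4, where the ratio was 0.367 (95% counting interval, 0.128 to 1.001). For *HES4* the log2 fold change was 0.52 ± 0.55 (SE; edgeR's adjusted p = 0.529) and 0.02 with the block and GC correction. *HEYL* and *NRARP* could not be tested.
Over the 8 tested members the median log2 fold change was 0.20, against 0.03 over all tested genes. Of the 8, 6 had a positive value, as did 53.4% of all tested genes. With the block and GC correction the median was −0.01 and 4 of the 8 were positive, against 0.01 and 51.4% over all genes of that fit.

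The members also differed between lines. An F test over the line terms, with condition in the model, called 4 of 8 tested members, against 22.9% of all tested genes, and 3 to 6 members under the other settings. *JAG1* had the smallest p among members (edgeR's adjusted p = 1.86e-06). Its mean over both conditions was 58.5 CPM in WT4 and 17.6 in WT3, a 3.33-fold difference, and the call held in all 12 fits that omitted 1 library or 1 line.
*HES1* was 1.87-fold higher in WT4 (26.8 CPM) than in WT1 (14.3 CPM; edgeR's adjusted p = 5.15e-05). Without WT4 the other lines were not distinguished (adjusted p = 0.110). *NOTCH2* was 1.41-fold higher in WT4 (387 CPM) than in WT2 (275 CPM; adjusted p = 7.32e-04), and this call was lost without the line WT2 (0.663) or its serum-free library (0.0777).
*HEY1* was 1.95-fold higher in WT4 (11.4 CPM) than in WT1 (5.82 CPM; edgeR's adjusted p = 0.0109), and was not called without WT1 (0.0889), without its serum library (0.0603) or without WT4 (0.0507). *NOTCH1* (edgeR's adjusted p = 0.0590), *NOTCH3* (0.554), *JAG2* (0.169) and *HES4* (0.168) did not pass. *NOTCH1* was called in 8 of 19 alternatives, among them GC correction (7.85e-04), DESeq2 (adjusted p = 0.0408) and the fits without WT4 (0.00657), its serum library (0.00163) or its serum-free library (0.00189), and without the serum-free library of WT1 (0.0251). WT4 thus had the highest mean of *JAG1*, *HES1*, *NOTCH2* and *HEY1*, the 4 genes called. For *NOTCH2*, however, WT1 (381 CPM) and WT3 (360 CPM) were close to WT4, and WT2 was the line apart, at 275 CPM. *HES4* was lowest in WT4, at 0.265 CPM, and highest in WT2, at 0.767 CPM.

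Among the ligands, receptor and HES/HEY genes outside the member list, *HES7* and *DLK2* rose without serum. *HES7*, known for its role in the segmentation clock, was at 0.398, 0.472, 0.608 and 1.06 CPM in WT1 to WT4 with serum and at 1.52, 1.51, 1.75 and 2.84 CPM without. All serum-free libraries were above all serum libraries. Its log2 fold change was 1.61 ± 0.35 (SE; edgeR's adjusted p = 0.00991).
*HEY2*, which encodes a repressor related to HEY1 and whose promoter is shown above, was at 0.716, 1.03, 0.584 and 2.29 CPM with serum and at 1.97, 1.51, 0.822 and 6.24 CPM without. It was higher without serum in each line and, like *HEY1*, highest in WT4. Its log2 fold change was 1.22 ± 0.68 (SE; edgeR's adjusted p = 0.227), and *HEY2* passed with the block (1.01, adjusted p = 0.00206). The blocked call held in all 4 fits that left out a line (adjusted p between 0.00216 and 0.0187). Without the block, leaving out the serum-free library of WT4 gave a difference of 0.33 (edgeR's adjusted p = 0.695).
*HES2* was at 0.491 to 2.07 CPM with serum and 0.977 to 2.96 without, differing by 0.88 on the log2 scale (edgeR's adjusted p = 0.260), and passed with the block (0.96, adjusted p = 0.00697). WT2 was the highest serum library, and without it *HES2* passed without the block (1.60, edgeR's adjusted p = 0.0420). The blocked call was lost without WT1 (0.0668). *HES6* was at 2.36 to 8.38 CPM with serum and 5.14 to 7.39 without, a log2 difference of 0.49 (edgeR's adjusted p = 0.387). It passed without the serum library of WT4 (0.97, edgeR's adjusted p = 0.0232) or without the line WT4 (0.89, 0.0412). *HES3* had 7 reads and *HES5* 9 reads over all libraries and were not tested. Of the 6 other HES and HEY genes, 1 of 4 tested was thus called higher and none lower, against 11.1% and 14.0% of all tested genes. With the block 3 were higher, against 23.2%.

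*DLK2*, which encodes a Delta-like protein without the domain that activates Notch in canonical ligands, rose from 1.99, 2.78, 2.43 and 5.53 CPM in WT1 to WT4 with serum to 5.31, 6.20, 6.65 and 7.14 CPM without. The groups overlapped only through WT4 with serum. Its log2 fold change was 1.0 ± 0.29 (SE; edgeR's adjusted p = 0.0320), and the call was lost in 10 of 12 fits that omitted 1 library or 1 line.
*DLL1*, a Delta-like ligand, had 2, 20, 2 and 10 reads with serum and 8, 62, 13 and 26 without. It passed with the block (log2 fold change 1.37, edgeR's adjusted p = 0.0261) and not without it (1.28, 0.185). The blocked call was lost without WT1 (adjusted p = 0.0663), WT2 (0.116) or WT3 (0.111). *DLL3*, which is known to inhibit Notch within the same cell, was at 4.43 to 7.54 CPM with serum and 4.41 to 6.54 without, a log2 difference of −0.06 (edgeR's adjusted p = 0.853). With the block and GC correction it was called lower (−0.34, adjusted p = 0.0378).
*DLL4*, a ligand best known in blood vessels, had too few reads to be tested, with 2, 7, 1 and 2 with serum and 4, 17, 19 and 17 without. *DLK1* had 1 read in all libraries together. *NOTCH4* was at 1.03 to 1.66 CPM with serum and 1.04 to 1.67 without, a log2 difference of −0.04 (edgeR's adjusted p = 0.929).

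**Figure D4:**
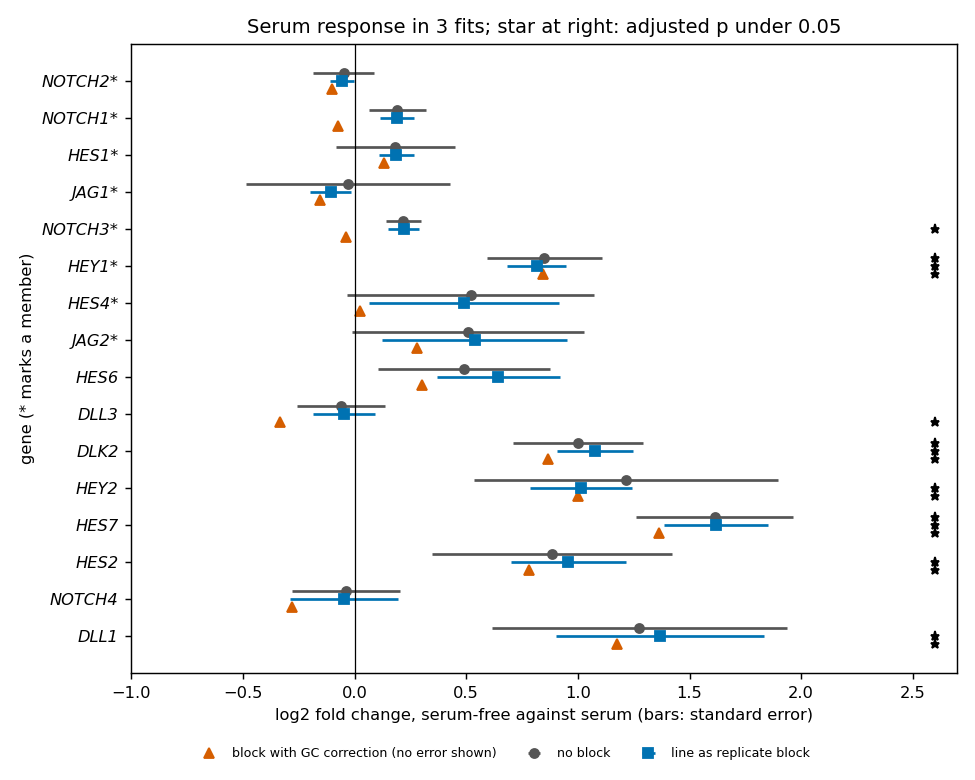
Log2 fold change without serum of the 16 tested receptors, ligands and HES/HEY genes in a fit without a block (circles, SE), with the line as replicate block (squares, SE) and with block and GC correction (triangles); stars at the right mark an adjusted p under 0.05 in the fit at that height. HEY1, HES7 and DLK2 carry 3 stars, and NOTCH1 and NOTCH3 change sign with the GC correction.

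The machinery that modifies, cleaves and relays Notch was mostly expressed, with changes in both directions. Of 59 pathway genes outside the member list, 55 were tested, of which 14 rose and 5 fell, against 11.1% of all tested genes higher and 14.0% lower. With the block, 26 rose and 8 fell, against 23.2% higher and 45.7% called in either direction. The median log2 fold change of these genes was 0.19, against 0.03 over all tested genes. With the block and GC correction, 27 rose and 13 fell, against 21.8% higher and 46.4% called in either direction over all genes.
Among 5 receptor glycosylation genes, 1 rose and 1 fell. *POFUT1*, which adds O-fucose to the receptors, fell from 185 ± 10.3 to 145 ± 3.47 CPM (SD, n = 4; log2 fold change −0.35, edgeR's adjusted p = 0.00402). *RFNG*, a Fringe enzyme that extends this fucose, rose from 14.9 ± 0.436 to 19.2 ± 1.61 CPM (0.37, adjusted p = 0.0139), but not with the block and GC correction (0.04, adjusted p = 0.729).
Among 9 cleavage genes, 2 rose and 1 fell. *NCSTN*, a γ-secretase subunit, rose from 88.9 ± 7.70 to 110 ± 7.0 CPM (log2 fold change 0.31, edgeR's adjusted p = 0.0194). *APH1B*, which encodes another subunit, rose by 0.83 (adjusted p = 0.0226). *ADAM10*, which encodes the protease of the first ligand-induced cut, fell from 254 ± 15.9 to 214 ± 12.6 CPM (−0.24, adjusted p = 0.0302), and was not called with upper-quartile scaling (−0.18, adjusted p = 0.0787) or with the block and GC correction (−0.06, adjusted p = 0.301).
Of 13 ubiquitin ligases and endocytic adaptors, 6 rose and 1 fell. *DTX3*, a Deltex family gene, rose from 23.9 ± 0.552 to 37.3 ± 3.06 CPM (log2 fold change 0.65, edgeR's adjusted p = 0.00112), *DTX3L* by 0.60 (adjusted p = 0.00374) and *MIB2*, a ligase that acts on Notch ligands, by 0.70 (adjusted p = 0.00432). These 3 calls held in all 12 fits that omitted 1 library or 1 line. With the block and GC correction they also passed, at smaller log2 fold changes for *MIB2* (0.35) and *DTX3* (0.45) and at 0.65 for *DTX3L*. *FBXW7*, which marks the Notch intracellular domain for degradation, fell from 28.1 ± 1.15 to 22.8 ± 0.706 CPM (−0.30, adjusted p = 0.0126).
Of 7 genes of the nuclear complex, 1 rose, the acetyltransferase gene *EP300* (log2 fold change 0.24, edgeR's adjusted p = 0.0474). The *EP300* call was lost with limma's voom (adjusted p = 0.0510), RLE scaling (0.0562) and no filter on low counts (0.0717). Among 13 corepressor genes, 2 rose and 2 fell. *TLE2*, a Groucho family gene, rose by 0.92 (edgeR's adjusted p = 0.0268). The deacetylase genes *HDAC1* and *HDAC2* had log2 fold changes of −0.28 (edgeR's adjusted p = 0.00972) and −0.44 (0.0260).
Of 12 fits that omitted 1 library or 1 line, the call was lost in 10 for *EP300*, in 8 for *ADAM10*, in 7 each for *NCSTN* and *HDAC2*, in 6 for *APH1B*, in 5 for *TLE2*, in 3 each for *RFNG* and *FBXW7*, and in 2 each for *HDAC1* and *HES7*. With the block, each of these 10 genes and *DLK2* passed in all 4 fits that left out a line, and *POFUT1* passed in all 12 fits without a block.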

How the data were processed

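Total RNA depleted of ribosomal RNA was sequenced in paired ends from 4 A375 lines with and without serum. Counts are those the authors deposited, 1 whole number per gene and library, without normalization. The submitters' processing notes name cutadapt, TopHat2 2.0.11, HTSeq and GRCh38, whereas the paper's methods name hg19. Symbols matched 55604 of 58051 identifiers. Low counts were removed by filterByExpr, library sizes were adjusted by TMM, and conditions were compared by the robust quasi-likelihood test of edgeR 4.0.16 (R 4.3.3) with Benjamini-Hochberg adjustment and a threshold of 0.05. CPM and RPKM used TMM-scaled library sizes. Gene length and GC content came from GENCODE lifted to GRCh37, another build than the counts, and positions and promoters from RefSeq (all 10 members matched by symbol). The line paired the libraries: deviations from condition means correlated at 0.40 to 0.60 within lines and at most at 0.13 between them. Alternatives were the replicate block, DESeq2 1.42.0, limma's voom (3.58.1), RLE and upper-quartile scaling, other filters, GC correction (lowess, span 0.3) and each library or line left out. The blocked fits without a line were added after seeing the data. The members and lists were chosen with earlier results of these data known. All members are named, and at most 4 called genes of each other list, by smallest p. Of 6 endothelial markers, 5 matched 1 identifier. Scripts were tested on simulated counts. Values of a few listed genes are not reported here.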

Additional observations from a re-analysis of the deposited data

Results flagged for a closer look

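In groups of 4 lines, 2 of 32 sets of CPM values held a line far from the others, and chance gives about 1 in 20. *HES1* without serum was at 28.3 CPM in WT4 and at 15.5 to 17.4 in the other lines. *HES2* with serum was at 2.07 CPM in WT2 and at 0.491 to 0.669 in the others.

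In 5 of 8 tested members, lines moved in opposite directions without serum, as in 44.6% of all tested genes, and WT4 was the line that went against the others each time. The log2 ratio of serum-free to serum in WT4 was −0.10 for *NOTCH1* (0.07 to 0.47 in the other lines), 0.083 for *NOTCH2* (−0.12 to −0.087) and 0.26 for *JAG1* (−0.44 to −0.09). It was −0.22 for *JAG2* (0.41 to 1.40) and −1.45 for *HES4* (0.54 to 1.78). With 1 library per line and condition, these differences were not tested, and the library of WT4 with serum was the shallowest. The tables labelled WT4 were deposited under a different line name, so this line is identified by its label only.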

How the results depend on the processing

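Members called without serum numbered 1, and 2 with the replicate block, upper-quartile scaling, at least 10 counts in every library or protein-coding genes only. Leaving out a library or line gave 0 to 5, the 5 coming from the blocked fit without WT4 (*NOTCH1*, *NOTCH2*, *NOTCH3*, *JAG1* and *HEY1*, against 50.3% of all genes). Over all genes the count was 4434, with 8067 in the blocked fit, 8091 with block and GC correction, 1589 to 6128 with a library or line left out without the block, and 6185 to 8938 in the blocked fits without a line. For the other pathway genes it was 19, then 34, 40 and, without the block, 4 to 24. Genes differing between lines numbered 4055, and 2364 to 7580 with a library or line left out.

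Directions turned for results that had not passed as first reported, with all 8 libraries, TMM scaling and no block. With block and GC correction *NOTCH1* was at −0.074 and *NOTCH3* at −0.040. Upper-quartile scaling gave 0.017 for *NOTCH2*, 0.033 for *JAG1*, 0.0014 for *DLL3* and 0.025 for *NOTCH4*. Leaving out a library or line gave −0.14 to 0.062 for *NOTCH2*, −0.45 to 0.20 for *JAG1*, −0.061 to 0.43 for *HES1*, −0.17 to 0.12 for *DLL3* and −0.30 to 0.079 for *NOTCH4*. In the blocked fit, *JAG1* was at 0.010 without WT2, *DLL3* at 0.12 without WT4, and *NOTCH4* at 0.074 without WT2 and 0.052 without WT4. The cause was not tested. Among members the block changed no call but that of *NOTCH3*. *JAG2* and *HES4* had only 143 and 210 reads in all, and *HEYL* and *NRARP* too few to be tested. The part of depth in these results was not tested.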

Other observations

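WT4 stood alone against the other 3 lines in 13% of all tested genes (2301 of 17671), while WT1, WT2 and WT3 each did so in 5.28% to 6.66%. Among the 8 tested Notch members it did so in 5, though for *JAG2* and *HES4* its ratio was within counting error of no change. *HEY1* and *HEY2* reached their highest level in WT4 without serum, at 15.9 and 6.24 CPM.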
